A study of Mus musculus with 1536 samples.

Results

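The genes described here encode 10 calcium-binding and calcium-related proteins of neurons, Calb1, Calb2, Pvalb, Necab1, Necab2, Necab3, Hpcal1, Hpcal4, Ncald and Pcp4, taken by name from the 53263 gene symbols of a single-cell RNA-sequencing table of adult mouse serotonin neurons. The table holds 999 cells, and each cell is 1 Smart-seq2 library sorted singly by tdTomato fluorescence. The study asked how serotonin neurons of the raphe differ from each other at the level of their transcripts. Values are CPM, the reads of a gene divided by all gene reads of its cell and put on one common scale.

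All cells came from Sert-Cre;Ai14 mice on a C57BL/6J background, 40 to 45 days old, in which Cre driven by the serotonin transporter gene turns on a tdTomato reporter, so that a cell is marked if it ever used that driver. There were 2 dissections. The first, labelled Principal DR, took the principal dorsal raphe alone (pDR, 290 cells on 5 plates). The second, labelled All DR, took a larger block (709 cells on 11 plates). That block held the pDR, the caudal dorsal raphe and the median raphe, although the label does not name the median raphe. The labels tie no cell to an animal. A dissection was therefore treated as a single sample without a test, and the spread given is that over plates, which may share animals.

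Serotonin markers were read in nearly all cells, which were sorted on a Sert-Cre reporter and are called Tph2-positive by the study. Detection of Tph2 and Slc6a4 is therefore no independent support for their identity. Reads of Tph2, which encodes the enzyme of serotonin synthesis in neurons, and of the transcription factor gene Fev were found in all 999 cells, and the transporter genes Slc18a2 and Slc6a4 in 998 and 997. The median cell had 827283 reads on genes (96834 to 2780443), with medians of 755926 in the pDR dissection and 869546 in the All DR dissection. Oligodendrocyte markers (5 of 5 with a read) summed to between 60.3 and 110 CPM per plate in the pDR dissection and between 78.5 and 428 CPM in the All DR dissection. Microglia markers stayed at or under 1.39 CPM on every plate and endothelial markers at or under 3.44 CPM, with Cx3cr1 and Cldn5 at 0 in the pDR dissection, and astrocyte markers ranged from 0.359 to 39.4 CPM. The part of these differences in the results below was not tested.

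Calcium-binding proteins shape the calcium signal of a neuron in different ways. Calbindin, calretinin and parvalbumin, the products of Calb1, Calb2 and Pvalb, are EF-hand proteins that bind free calcium in the cytoplasm and limit how far and how long it acts, and they are classical markers that divide neurons of a region into classes. The NECAB proteins carry an EF-hand together with a monooxygenase domain, the products of Hpcal1, Hpcal4 and Ncald are neuronal calcium sensors that move to membranes when they bind calcium, and Pcp4 is a small protein with an IQ motif that binds calmodulin and alters its exchange of calcium.

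Between genes, levels were compared only per kb of exon (the union of all annotated exons). Pcp4 stood highest at 199 ± 97.2 CPM per kb (mean ± SD over 16 plates), followed by Necab2 at 138 ± 46.4, Hpcal1 at 125 ± 34.7 and Ncald at 76.2 ± 19.4. Pcp4, Necab2 and Hpcal1 differed by less than the spread of Pcp4 over plates. Calb2 at 38.6 ± 26.8, Calb1 at 26.1 ± 14.8 and Hpcal4 at 20.5 ± 5.05 CPM per kb formed a second tier within their spread, Necab3 lay lower at 8.03 ± 1.63, and Necab1 (0.991 ± 0.983) and Pvalb (0.136 ± 0.131) lowest. A cell had reads of a median of 7 of the 10 genes, and no cell had reads of all 10 or of fewer than 2.

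Among the calcium buffers, Calb1 (GENCODE M21 on GRCm38, chr4:15881264-15908064, plus strand) was detected in 718 of the 999 cells and Calb2 (chr8:110137502-110168210, minus strand) in 540. Detected means at least 1 read. Pvalb (chr15:78191114-78206400, minus strand), a marker of fast-spiking interneurons elsewhere in the brain, was detected in 32 cells and reached 10 CPM in 2. Its mean of 0.158 CPM was below the minimum of 1 CPM that was set for the comparisons, so 9 of the 10 genes were compared.

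Calb1 was found more often in the pDR dissection, though also in most All DR cells. It was detected in 92.8% of the 290 pDR cells (exact 95% interval 89.1 to 95.5, counting error only) and in 63.3% of the 709 All DR cells (59.7 to 66.9). Its plate means in the pDR dissection were 259, 204, 159, 166 and 221 CPM on plates 12, 13, 25, 39 and 40. The 11 All DR plates ran from 16.1 to 193 CPM with a median of 107 CPM. Plate 63, at 193 CPM, lay among the pDR plates, so the dissections overlapped, and the other 10 All DR plates lay below all 5 pDR plates.

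Calb2 went the other way. It was detected in 32.1% of the pDR cells (26.7 to 37.8) and in 63.0% of the All DR cells (59.4 to 66.6), and with every cell thinned to 250000 reads these shares were 26.6% and 54.5%. The pDR plates 12, 13, 25, 39 and 40 had means of 47.7, 30.0, 10.5, 23.6 and 19.4 CPM, and the All DR plates ran from 43.5 to 167 CPM with a median of 67.9 CPM. Plate 12 alone reached into the range of the All DR plates. Within the All DR dissection, plates 48, 55, 56 and 67 stood apart with the lowest Calb1 means (16.1, 50.1, 19.8 and 45.5 CPM) and the highest Calb2 means (167, 125, 154 and 105 CPM), and these same plates had the largest shares of cells with a Zeb2 read (57.9%, 36.5%, 44.4% and 23.3%, against 10.0% to 16.2% on the other 7).

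**Figure D1:**
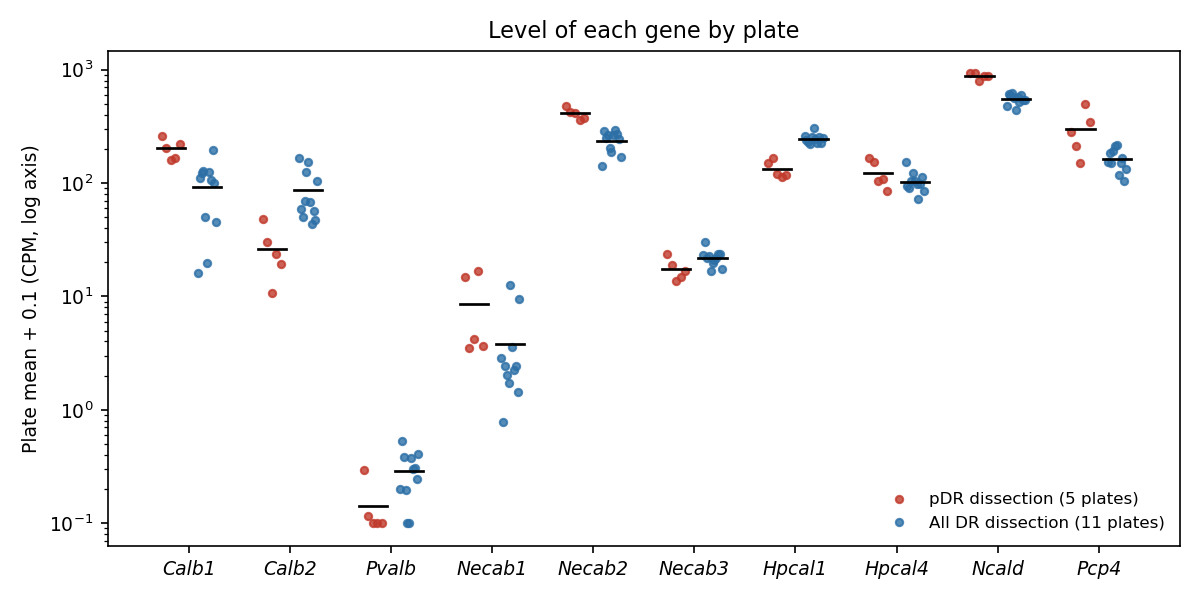
Mean level of each gene on each plate, as CPM plus 0.1 on a log axis, with the 5 plates of the pDR dissection in red, the 11 of the All DR dissection in blue, and a black bar for the mean over the plates of a dissection. Necab2 and Ncald were higher and Hpcal1 lower on all 5 pDR plates than on any All DR plate, while the other genes overlapped.

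For the comparison of dissections, the log2 ratio of the mean over pDR plates to the mean over All DR plates was taken with 1 CPM added to both, and a gene was called where the ratio passed 2-fold in either direction (log2 of 1). Of the 9 genes compared, 2 were called higher in the pDR dissection (3.39% of all 12834 genes compared were) and 1 lower (2.12% of all genes). The median log2 ratio was 0.68 over the 9 genes and -0.02 over all genes. Calb1 was higher in the pDR dissection (log2 1.12, 202 ± 41.0 against 92.5 ± 53.9 CPM, mean ± SD of 5 and 11 plates) and Calb2 lower (log2 -1.67, 26.3 ± 13.9 against 85.9 ± 44.5 CPM). The third call, Necab1 (chr4:14952245-15149794, minus strand), was a log2 of 1.02 with plate means of 8.50 ± 6.66 against 3.68 ± 3.74 CPM, and it rested on 34 and 56 cells with a read. It was 0.76 without plate 12 and 0.67 without plate 39, the 2 plates with the most Necab1, and it also fell under the threshold without any 1 of 8 of the All DR plates.

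Counted by plates whose means did not overlap at all between the dissections, the calls were different genes. Necab2, Hpcal1 and Ncald did not overlap, 3 of 9, where 9.1% of all genes did not. Necab2 (chr8:119446719-119472640, plus strand), the most abundant NECAB gene here, had means of 480, 426, 411, 361 and 375 CPM on the 5 pDR plates and of 140 to 293 CPM on the All DR plates, with a median of 250 CPM. Ncald (chr15:37366175-37792570, minus strand), which encodes neurocalcin delta, had means of 928, 926, 800, 870 and 878 CPM on the pDR plates and of 439 to 625 CPM, median 561, on the All DR plates. Every pDR plate was above every All DR plate for both genes. The ratios were a log2 of 0.81 and 0.68, short of 2-fold.

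Hpcal1 (chr12:17690856-17791933, plus strand), a hippocalcin-like sensor, was the reverse. Its means were 150, 168, 121, 113 and 117 CPM on the pDR plates against 222 to 307 CPM, median 243, on the All DR plates (log2 -0.88). The related Hpcal4 (chr4:123183227-123194701, plus strand) was nearly flat, at 123 ± 34.9 against 103 ± 21.5 CPM (log2 0.26), and was detected in 99.0% and 98.9% of cells. Necab3 (chr2:154544399-154558890, minus strand) was also close in the 2 dissections, at 17.4 ± 3.92 against 21.8 ± 3.59 CPM (log2 -0.31).

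Pcp4 (chr16:96467606-96525793, plus strand) was detected in 100% of the pDR cells and 98.6% of the All DR cells. Its pDR plate means spread from 149 to 498 CPM, at 282, 210, 149, 498 and 345 CPM on plates 12, 13, 25, 39 and 40, and the All DR plates from 104 to 215 CPM (log2 0.88). Plates 13 and 25 lay inside the All DR range. Without plate 25 the log2 ratio was 1.05, past 2-fold, and without plate 39 it was 0.61.

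Cells with a read of Zeb2 or Irx2, transcription factor genes described in detail further on, made up 1.03% and 3.45% of the pDR cells but 20.7% and 21.7% of the All DR cells. When they were left out, a choice made after seeing the data, 277 pDR cells and 413 All DR cells remained. The Calb2 ratio then was a log2 of -0.29 (26.2 against 32.3 CPM) and that of Calb1 0.62 (206 against 133 CPM), neither past 2-fold, and Necab2 overlapped (log2 0.42). Calb1 was then detected in 93.5% of pDR and 81.8% of All DR cells, and Calb2 in 31.0% and 51.1%. Hpcal1 and Ncald still did not overlap between dissections (log2 -0.66 and 0.45), and Necab1 was the only call (log2 1.64, 8.72 against 2.12 CPM).

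In single cells, Calb1 and Calb2 were found apart and together. At 10 CPM or more, 479 cells (47.9%) had Calb1 without Calb2, 155 (15.5%) had Calb2 without Calb1, 195 (19.5%) had both and 170 (17.0%) had neither. In the pDR dissection these shares were 73.8%, 1.72%, 15.9% and 8.62%, and in the All DR dissection 37.4%, 21.2%, 21.0% and 20.5%. The cells with both were not low in either gene, with means of 294 CPM of Calb1 and 163 CPM of Calb2. Cells with Calb1 only averaged 160 CPM of Calb1, and cells with Calb2 only 209 CPM of Calb2.

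**Figure D2:**
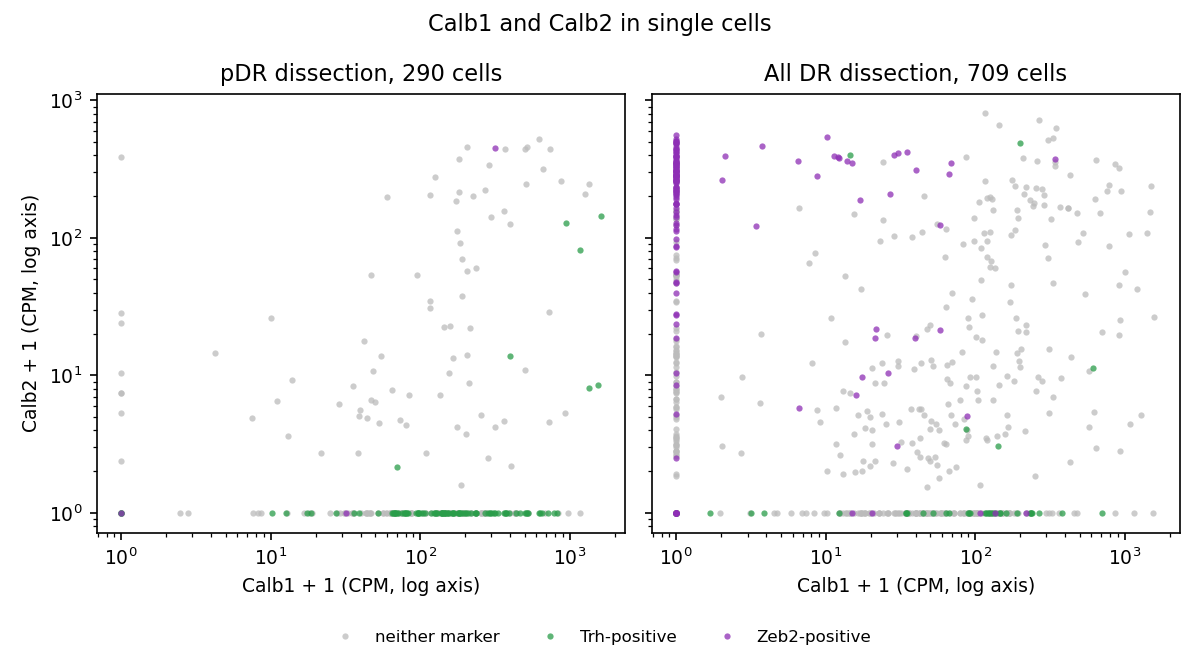
Calb1 against Calb2 in every cell of each dissection, as CPM plus 1 on log axes, with Zeb2-positive cells in purple, Trh-positive cells in green and the others in gray. Cells with no read of a gene lie at 1 on its axis, where most Zeb2-positive cells (no Calb1) and most Trh-positive cells (no Calb2) are found.

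Over the 16 plates together the buffers were not exclusive. Both had a read in 353 cells, against 366 expected when the shares of the 2 genes in each plate are multiplied, a ratio of 0.965. The number was above expectation on only 4 of the 16 plates. With at least 10 CPM of each it was 195 cells against 214 expected, a ratio of 0.913. Among all 45 pairs of the 10 genes, 44 had an expected number of at least 10, their ratios ran from 0.844 (Necab1 with Necab2) to 1.29 (Calb2 with Necab1), and none reached 1.5 or its inverse. At 10 CPM or more, Calb2 with Necab1 was found in 39 cells against 26.0 expected, a ratio of 1.5, and it was the only pair to reach that limit. Pairs of the 5 genes detected in over 90% of cells cannot depart far from 1.

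On the scale ln(CPM+1) over all 999 cells, the highest correlation among the 10 genes was between Necab2 and Ncald (Pearson r = 0.58, and 0.52 with each cell centered on its plate), followed by Calb1 and Necab2 (0.47) and Calb1 and Ncald (0.34). Calb2 was opposed to Necab2 (-0.50) and Ncald (-0.45), and weakly to Calb1 (-0.13). These are descriptions over cells that share plates and animals, in libraries of unequal depth.

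The cells with a read of Zeb2 gave the largest differences. Zeb2 encodes a zinc-finger transcription factor, and 150 cells had a read of it, 147 of them in the All DR dissection and 3 in the pDR dissection. In each of the 11 plates with at least 5 positive and 5 negative cells, all of the All DR dissection, the mean of positive cells was divided by that of negative cells. The value given is the mean log2 ratio over plates ± SD. Of the 9 genes, 1 was called higher (2.03% of all genes were) and 3 lower (6.35% of all genes). Plate means did not overlap for 2 of the 9, Calb2 and Ncald, and for 3.67% of all genes.

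Calb1 was nearly absent from the Zeb2-positive cells. Their plate means ran from 0 to 53.1 CPM with a median of 6.96 CPM, against 30.3 to 212 CPM with a median of 126 CPM in the negative cells of the same plates, and the ratio was a log2 of -3.37 ± 1.48, negative in all 11 plates. Within the All DR dissection a read of Calb1 was found in 25.2% of the 147 positive cells and 73.3% of the 562 negative cells. Calb2 was the mirror image, with plate means from 102 to 324 CPM, median 205, in positive cells and from 18.1 to 60.3 CPM, median 37.3, in negative cells (log2 2.49 ± 0.91, positive in 11 of 11 plates, reads in 91.2% and 55.7% of the same All DR cells). The 2 sets of plates did not overlap for Calb2, and the lowest positive plate lay above the highest negative plate. At 10 CPM or more, 71.4% of the Zeb2-positive All DR cells had Calb2 only, against 8.01% of the negative All DR cells, and conversely, over both dissections, 67.7% of the 155 cells with Calb2 only had a Zeb2 read.

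The sensor gene Ncald was lower in the Zeb2-positive cells of every plate, at 169 to 376 CPM, median 272, against 563 to 743 CPM, median 629 (log2 -1.21 ± 0.32). Necab2 was lower on average (log2 -2.02 ± 1.74) but unevenly so. Positive cells had 10.9, 11.7 and 14.7 CPM on plates 67, 55 and 56, and 220, 232 and 347 CPM on plates 63, 60 and 52, while the negative cells of the 11 plates had 219 to 325 CPM. Plate 52, with 9 positive cells, was the 1 plate in which the positive cells were higher.

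The Zeb2-positive cells themselves divided by Necab2. Of the 150, 69 had at least 10 CPM of Necab2, with a mean of 225 CPM, and 81 had less, with a mean of 0.836 CPM. The 81 cells had less Calb1 (3.25 against 24.4 CPM), less Ncald (234 against 374 CPM), more Calb2 (291 against 159 CPM), more Hpcal1 (298 against 196 CPM) and more Pcp4 (244 against 157 CPM) than the 69. Hpcal4 was close in both, at 124 and 119 CPM. These cells were divided by a measured gene after seeing the data, so the values are a description, and the Necab2 means follow from the cut itself. The cells were pooled over plates and dissections, while Necab2 of Zeb2-positive cells ran from 10.9 to 347 CPM by plate. Differences between plates are thus not separated from this division.

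None of the remaining genes was past 2-fold with Zeb2 on average, but Necab1 varied too widely over plates (log2 -3.73 to 2.50) to be placed. Pcp4 was a log2 of 0.49 ± 0.45 higher in positive cells (9 of 11 plates), Hpcal4 0.18 ± 0.32, Hpcal1 -0.03 ± 0.37, Necab3 -0.28 ± 0.54, and Necab1, with reads in 16.3% against 5.69% of All DR cells, 0.03 ± 2.12. Median depth was 864648 reads in positive cells and 820062 in negative cells. Within the All DR dissection, oligodendrocyte markers summed to 175 CPM in positive and 129 CPM in negative cells and microglia markers to 0.963 and 0.332 CPM.

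**Figure D3:**
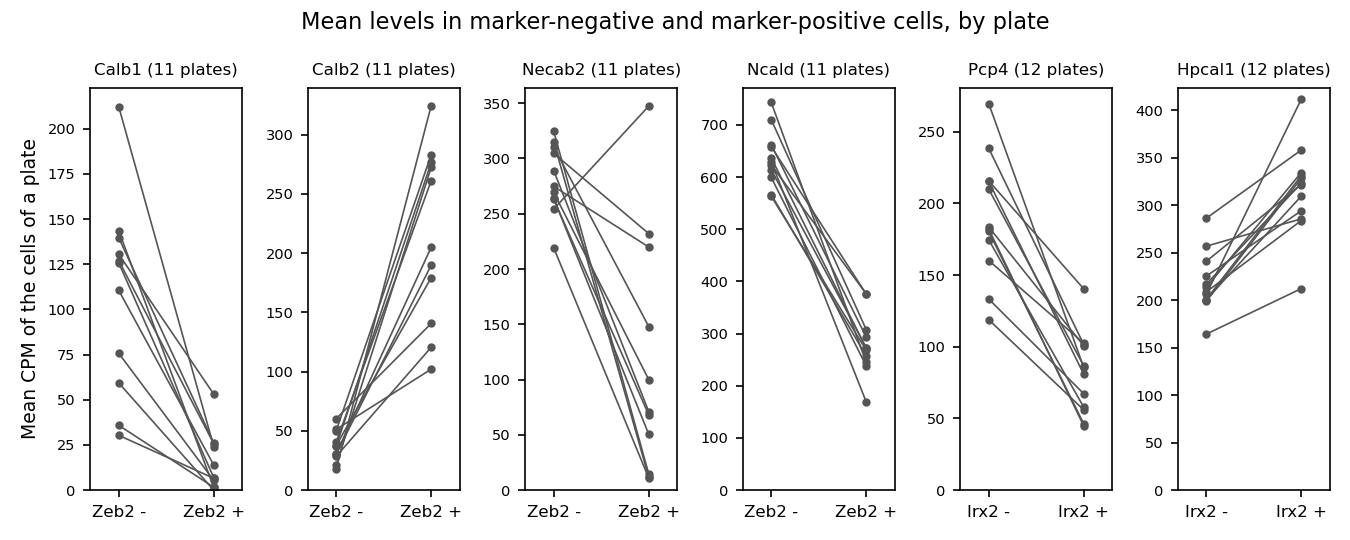
Mean CPM of marker-negative and marker-positive cells, with a line joining the 2 values of a plate, for Calb1, Calb2, Necab2 and Ncald by Zeb2 (11 plates) and for Pcp4 and Hpcal1 by Irx2 (12 plates), each panel with its own axis from 0. All lines fall for Calb1, Ncald and Pcp4, all rise for Calb2 and Hpcal1, and 1 of 11 lines rises for Necab2.

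Irx2-positive cells had another profile. Irx2 encodes an Iroquois homeobox transcription factor and had a read in 164 cells, 154 of them in the All DR dissection, and only 3.05% of these cells also had a Zeb2 read. Over the 12 plates that qualified, 0 of the 9 genes were called higher (0.475% of all genes were) and 3 lower (1.91% of all genes), Calb1, Calb2 and Pcp4. Pcp4 was lower in all 12 plates, at 44.8 to 140 CPM, median 83.2, in positive cells and 119 to 270 CPM, median 183, in negative cells (log2 -1.27 ± 0.46). Calb1 was lower in 9 of 12 plates, at 7.76 to 102 CPM, median 28.9, against 14.7 to 247 CPM, median 131 (log2 -1.43 ± 1.65).

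The call for Calb2 in Irx2-positive cells depended on which cells it was compared with. Positive cells had 6.28 to 102 CPM, median 29.2, against 31.8 to 211 CPM, median 64.4 (log2 -1.19 ± 1.24, lower in 10 of 12 plates), yet more of them had a read (68.2% against 61.6% within the All DR dissection), and no order is read from that share. With Zeb2-positive cells left out, a choice made after seeing the data, the log2 ratio was 0.05, and without plate 56 it was -0.99. With cells pooled, it was -0.87 within the All DR dissection and -0.61 over all cells, both short of 2-fold. Within the pDR dissection, with 10 positive cells, it was -2.58. Hpcal1 was higher in the Irx2-positive cells of all 12 plates, at 212 to 412 CPM against 164 to 286 CPM, a log2 of 0.53 ± 0.23 that stayed under 2-fold. Necab2 (-0.03 ± 0.46), Ncald (0.16 ± 0.38), Hpcal4 (-0.01 ± 0.24), Necab3 (0.17 ± 0.49) and Necab1 (0.49 ± 1.65) lay within their spread over plates. No gene's plate means were apart in positive and negative cells (0.304% of all genes were). Within the All DR dissection, oligodendrocyte markers summed to 192 CPM in positive and 124 CPM in negative cells, and their part in these results was not tested. Neither buffer reached 10 CPM in 32.5% of the Irx2-positive All DR cells, against 17.1% of the negative ones.

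Trh encodes the precursor of thyrotropin-releasing hormone, and 138 cells had a read of it, 98 of them from the pDR dissection. At 10 CPM or more, 92.9% of the Trh-positive pDR cells had Calb1 without Calb2, against 64.1% of the negative pDR cells. In the All DR dissection these shares were 77.5% and 35.0%. Over 10 plates that qualified, 1 of 9 genes was called lower (2.95% of all genes were) and 0 higher (1.32% of all genes), and the plate means of none of the 9 were apart (0.569% of all genes were). The call was Calb2. On the 5 pDR plates the Trh-positive cells had 8.56, 0.49, 0, 0 and 0 CPM of Calb2 against 81.4, 43.0, 13.3, 38.9 and 24.8 CPM in the negative cells of plates 12, 13, 25, 39 and 40. On the 5 All DR plates, each with 5 or 6 positive cells, they had 47.0, 97.0, 0, 110 and 0.413 CPM against 133, 65.8, 47.3, 52.0 and 50.3 CPM on plates 55, 57, 60, 63 and 64. The mean log2 ratio was -3.25 ± 2.47, and it was negative on all 5 pDR plates and on 3 of the 5 All DR plates. With the cells of a dissection pooled it was -3.21 in the pDR and -0.86 in the All DR.

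Calb1 was found in 98.0% of Trh-positive and 90.1% of negative pDR cells, and in 95.0% and 61.4% of All DR cells. Its mean over the cells of both dissections was 229 against 119 CPM (log2 0.94), but within plates the ratio was only 0.24 ± 0.45. Necab2 was higher in Trh-positive cells of all 10 plates (log2 0.51 ± 0.33, 431 ± 119 against 298 ± 73.1 CPM) and Hpcal1 lower in all 10 (log2 -0.63 ± 0.25, 131 ± 43.3 against 200 ± 54.6 CPM), both short of 2-fold. Necab3 was lower in 9 of 10 plates (log2 -0.71 ± 0.78), and Ncald (0.21 ± 0.14), Hpcal4 (0.18 ± 0.25) and Pcp4 (-0.19 ± 0.34) differed less. Necab1 was a log2 of 0.03 ± 1.68 over the 10 plates and 2.07 over the cells of the pDR dissection, where 21 of the 34 Necab1-positive cells had a Trh read. In the All DR dissection 2 of 56 did, and 24 of the 56 had a Zeb2 read. Median depth was 798688 reads in Trh-positive and 838296 in negative cells. Within the pDR dissection, endothelial markers summed to 4.07 CPM in Trh-positive and 0.414 CPM in negative cells and oligodendrocyte markers to 104 and 81.2 CPM, and their part in these results was not tested.

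Gad1 and Gad2 encode the enzymes that make GABA, and a read of at least 1 of them was found in 347 cells, 63.1% of the pDR cells and 23.1% of the All DR cells. Slc32a1, which encodes the vesicular transporter of GABA, had a read in 5 cells of the 999. Of the 138 Trh-positive cells, 91.3% were also Gad-positive, so these comparisons share cells. None of the 9 genes was called in either direction over the 16 plates (0.748% of all genes were higher and 0.468% lower), and no plate means were apart (0.0234% of all genes were). Calb2 was a log2 of -0.73 ± 1.67, with 7 of 16 plates positive. In the pDR dissection the Gad-positive cells had 20.2, 13.3, 5.59, 0 and 19.5 CPM of Calb2 against 100, 60.7, 17.4, 55.2 and 19.1 CPM in the negative cells of plates 12, 13, 25, 39 and 40, lower on the first 4 of the 5 and level on plate 40. With all cells of a dissection together it was -1.97 in the pDR and 0.14 in the All DR. Leaving out cells with a read of Zeb2 or Irx2, chosen after seeing the data, gave -1.57 over the plates. Necab1 was a log2 of 0.82 ± 1.47 (11 of 16 plates), with a read in 14.2% of Gad-positive and 7.48% of negative pDR cells and in 12.2% and 6.61% of All DR cells. Calb1, Necab2, Necab3, Hpcal1, Hpcal4, Ncald and Pcp4 lay between -0.26 and 0.14 as means over the 16 plates. Within the pDR dissection, however, Necab2 was higher and Hpcal1 lower in Gad-positive cells of all 5 plates. Over the cells of a dissection Necab2 was 0.53 in the pDR and 0.09 in the All DR, and Hpcal1 -0.57 and -0.06. In the All DR dissection oligodendrocyte markers summed to 207 CPM in Gad-positive and 118 CPM in negative cells and astrocyte markers to 13.7 and 2.61 CPM, and in the pDR dissection the oligodendrocyte sums were 90.5 and 86.3 CPM. Their part in these results was not tested.

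Slc17a8 encodes the vesicular glutamate transporter VGLUT3 and had a read in 649 cells, 45.2% of the pDR cells and 73.1% of the All DR cells. Over the 16 plates 1 of 9 genes was called higher (0.725% of all genes were) and 0 lower (0.413% of all genes), and the plate means of none were apart (0.0234% of all genes were). The call was Calb2 (log2 1.13 ± 1.37, 11 of 16 plates), and it rested on the pDR dissection. There the Slc17a8-positive cells had 82.1, 65.9, 17.2, 40.2 and 35.7 CPM against 21.8, 4.85, 2.15, 12.9 and 2.21 CPM in the negative cells, higher on all 5 plates. On the 11 All DR plates it was higher on 6 and lower on 5. Over all cells of a dissection the log2 ratio was 2.26 in the pDR and 0.24 in the All DR. The mean over plates fell to 0.97 without plate 13 and to 0.97 without plate 40. Necab2 was lower in Slc17a8-positive cells of all 16 plates (log2 -0.47 ± 0.28) and Pcp4 higher in 14 of 16 (0.58 ± 0.40). The other 6 genes lay between -0.49 (Necab1) and 0.48 (Calb1) as means over the 16 plates. With the cells of the All DR dissection pooled, Necab1 was -1.10, past 2-fold, and Calb1 0.99. In the pDR dissection they were 0.28 and 0.19. Median depth was 867515 reads in positive and 768896 in negative cells. In the pDR dissection oligodendrocyte markers summed to 82.1 CPM in Slc17a8-positive and 94.6 CPM in negative cells, astrocyte markers to 3.75 and 3.78 CPM and endothelial markers to 0.531 and 2.57 CPM. In the All DR dissection the oligodendrocyte sums were 117 and 197 CPM and the astrocyte sums 1.89 and 14.1 CPM, and the part of these markers in the results was not tested.

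**Figure D4:**
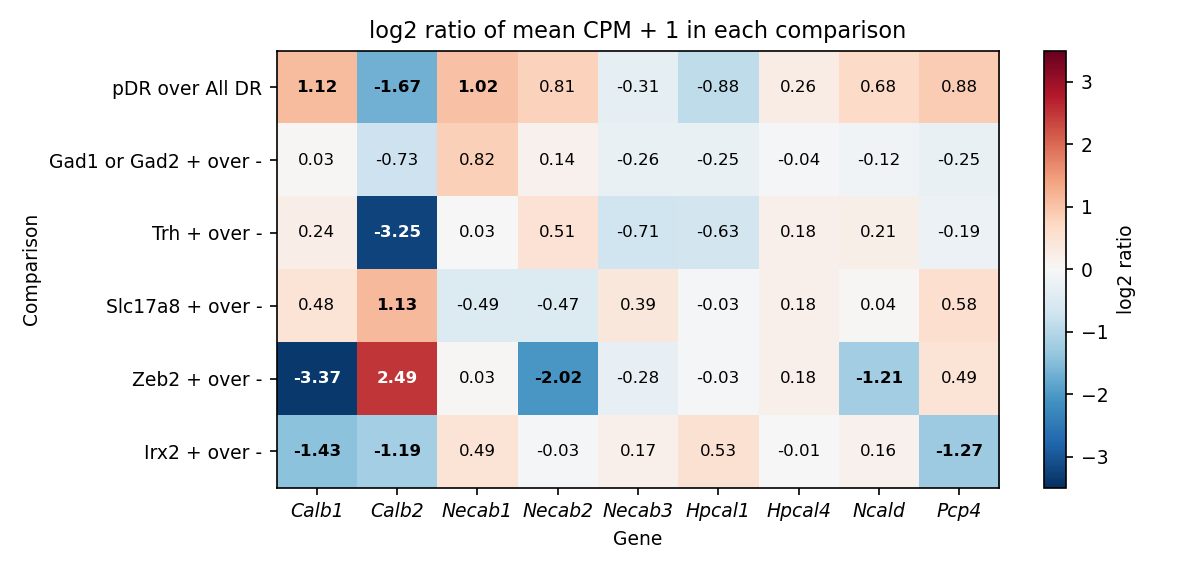
Log2 ratio of mean CPM plus 1 for the 9 genes compared (columns) in the comparison of dissections and in the 5 comparisons of marker-positive with marker-negative cells within plates (rows), with values past 2-fold in bold. Calb2 passed 2-fold in 5 of the 6 rows, Calb1 in 3, and Hpcal1, Hpcal4 and Necab3 in none.

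**Figure D5:**
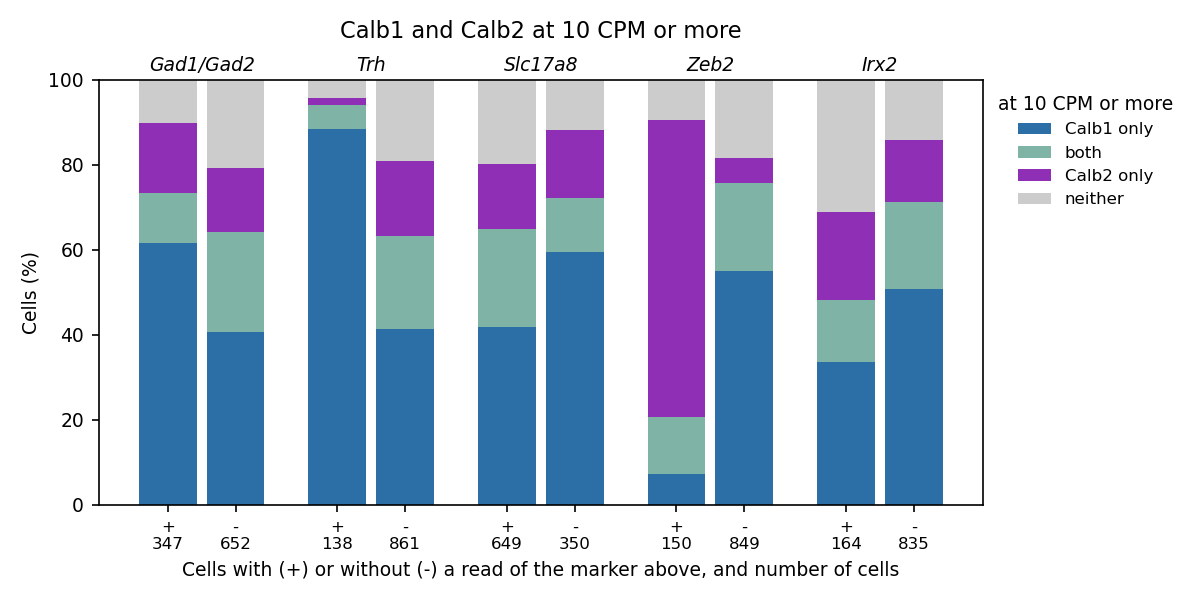
Share of cells, in percent, with at least 10 CPM of Calb1 only, of both genes, of Calb2 only or of neither, in cells of both dissections with (+) or without (-) a read of each marker. Calb1 only made up 88.4% of Trh-positive cells, Calb2 only 70.0% of Zeb2-positive cells, and neither 31.1% of Irx2-positive cells.

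The 2 sparse genes differed in their number of reads where found. No Pvalb-positive cell and no Necab1-positive cell had a read of Slc32a1. The 32 Pvalb-positive cells had a median of 4 reads and at most 18, and 29 of them came from the All DR dissection. Of these 29, 86.2% had a read of Slc17a8 and 10.3% of Gad1 or Gad2, where 73.1% and 23.1% of all All DR cells did. Necab1 had more reads than Pvalb where it was found, with a median of 26.5 reads in its 90 cells and a maximum of 255 CPM. These reads are not scaled to gene length. The antisense gene Gm11837 (mean 0.754 CPM) overlaps the end of Necab1, and reads in that overlap cannot be assigned to either strand, because the counting ignored it.

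Genes most like each member with a mean above 10 CPM were taken as the 3 with the highest Pearson r of ln(CPM+1) over the 999 cells, among 8087 genes with a mean above 10 CPM. Calb1 was followed most closely by Gucy1a1 (a subunit of the nitric oxide receptor guanylate cyclase, r = 0.59), Cbln4 (a secreted synapse organizer, 0.57) and En1 (a homeobox factor of midbrain and hindbrain, 0.56). Calb2 was followed by Pou3f1 (a POU-domain transcription factor, 0.68), Fam114a1 (0.52) and Ncam2 (an adhesion molecule, 0.51). Pou3f1 was also the gene most opposed to Ncald (-0.54). The Pou3f1 correlation was 0.65 with cells centered on their plate.

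Cdk14 (a cyclin-dependent kinase) led both for Necab2 (0.76) and for Ncald (0.58), and it was the gene most opposed to Calb2 (-0.56). For Necab2 it was followed by Pitpnc1 (0.71) and Rasgrf1 (0.69), and for Ncald by Necab2 itself (0.58) and Cntn1 (0.57). The Spearman correlation of Necab2 with Cdk14 was 0.45. Pcp4 was nearest to Stmn2 (0.50), Hs6st2 (0.49) and Selenow (0.47). Hpcal1 (Pcsk1n 0.45, Fxyd6 0.44 and Ctxn1 0.44) and Hpcal4 (Reep1 0.44, Atp6v0a1 0.43 and Hdac6 0.42) had lower best matches. With cells centered on their plate, Pcsk1n and Reep1 fell to 0.399 and 0.379, under 0.4. The matches of Necab3 (Sult4a1 0.23, Nsf 0.23 and Ntm 0.23) were weak, under 0.4 already over all cells.

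A wider list of 68 other genes of calcium signaling, 59 of them with a mean of at least 1 CPM, gave the setting. In the Zeb2 comparison 2 of the 59 were past 2-fold higher and 13 lower (2.03% and 6.35% of all genes were), with a median log2 of -0.14 against -0.04 over all genes. The 6 largest were S100a16 (an S100 protein, log2 -2.61 ± 1.59), Kcnip1 (a calcium sensor bound to Kv4 potassium channels, -2.19 ± 0.56), Atp2b1 (a plasma membrane calcium pump, -2.16 ± 0.44), Camk2a (a calmodulin-dependent kinase, -2.14 ± 0.72), Pcp4l1 (the relative of Pcp4, 2.11 ± 0.79) and Slc8a1 (a sodium-calcium exchanger, -2.07 ± 0.60). Kcnip1, Atp2b1, Camk2a and Slc8a1 were lower in 11 of 11 plates, and Atp2b1 had 67.1 against 299 CPM.

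In the other comparisons fewer genes of the list passed 2-fold. In Irx2-positive cells, where 0.475% of all genes were higher and 1.91% lower, 3 of 59 were higher, Kcnip4 (log2 1.75 ± 1.01), Hpca (the sensor hippocalcin, 1.10 ± 0.61) and Camk2a (1.03 ± 0.44), and 2 lower, Pcp4l1 (-2.47 ± 1.45) and Tesc (-1.02 ± 0.85). Pcp4l1 thus lay on the side of Pcp4 in these cells, at 11.0 against 49.0 CPM. In Trh-positive cells (1.32% of all genes higher, 2.95% lower) 1 was higher (Cib1, 1.68 ± 0.61) and 3 lower (Kcnip1, -3.05 ± 1.28, Slc24a3, -1.68 ± 1.51, and Slc24a2, -1.21 ± 1.26). In Gad-positive cells (0.748% and 0.468% of all genes) Caln1 was higher (1.21 ± 0.75) and Kcnip1 lower (-1.64 ± 0.89), and in Slc17a8-positive cells (0.725% and 0.413%) Pcp4l1 was higher (1.35 ± 1.00) and Caln1 lower (-1.39 ± 1.15).

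Between the dissections 5 of the 59 were higher in the pDR and 2 lower (3.39% and 2.12% of all genes were). The visinin-like sensor Vsnl1 was at 242 against 87.6 CPM (log2 1.46) and Micu3, a regulator of the mitochondrial calcium uniporter, at 331 against 125 CPM (1.40), while Hpca was at 11.5 against 45.4 CPM (-1.89). The S100 genes S100a1, S100a16 and S100a11 were the other higher genes (1.38, 1.24 and 1.23). S100b, named after its values were seen, was the other lower gene (-1.06, 2.14 against 5.54 CPM).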

How the data were processed

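Cells were sorted from dissected raphe tissue of Sert-Cre;Ai14 mice and made into Smart-seq2 libraries, which carry no molecular identifiers. The authors sequenced 75-base read pairs, aligned them to mm10 (GRCm38) with STAR 2.6.1a, counted genes without strand with HTSeq 0.11.2 and deposited CPM (tools per the labels). Of 9386862 CPM values above 0, 100% were whole multiples of 1 read within 0.001, and reads were recovered from them. No 2 cells were identical. Of 1536 labelled cells, 999 are in the table and passed the study's minimums of 300 genes and 50000 reads, and 537 were not analysed here. Doublets were not called, each well holding 1 sorted cell. The 10 genes and all lists were chosen with earlier results of these data known.

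Shares carry exact Clopper-Pearson intervals. Ratios used a pseudocount of 1 CPM, plates with at least 5 cells in each set, a threshold of 2-fold and, for calls, genes with a mean of at least 1 CPM. Where fewer than 3 plates qualified, the ratio over all cells would stand. Named were all 10 genes, the 3 genes most like each with a mean over 10 CPM, and at most 6 genes per comparison of the wider list. Gene pairs were named at 1.5 times the expected number or its inverse. No count model was fitted, as a dissection is 1 sample. The functions were tested on simulated data. Coordinates and exon lengths are from GENCODE M21. Python 3.11.15 was used (pandas 2.3.3, SciPy 1.17.1, NumPy 2.4.6, matplotlib 3.10.9). Which annotation release served for counting is not given in the sources used here. Some genes of the lists are not reported here.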

Additional observations from a re-analysis of the deposited data

Results flagged for a closer look

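The mean of Pvalb on plate 12, 0.192 CPM, stood apart from the other 4 plates of the pDR dissection, of which the next was at 0.0165 CPM and the lowest at 0. The gap took 0.914 of the range, above the limit of 0.71 for 5 values. This was 1 of 19 sets of plates examined in this way. Chance alone would mark about 1 in 20, a rate that need not hold for plates mostly at 0. In all, 3 pDR cells had a Pvalb read.

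Ncald differed with Gad1 or Gad2 in opposite directions in the dissections. Gad-positive cells had more Ncald on all 5 pDR plates, by a mean log2 of 0.14 (0.036 on plate 25 to 0.25 on plate 40). They had less on all 11 All DR plates, by a mean log2 of -0.24. Plates 50 and 63 of the All DR dissection were nearly level, at a log2 of -0.0015 and -0.011. The largest All DR differences were on plate 67 (-0.86, with 7 Gad-positive cells) and plate 52 (-0.53). The pattern was picked out because it differed between the dissections. Neither mean approached 2-fold, and the difference between the dissections was not tested.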

How the results depend on the processing

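The 4 calls by Zeb2 (Calb1, Calb2, Necab2 and Ncald) were made under every alternative run and with each plate left out, and log2 ratios ranged over the alternatives from -4.13 to -2.31 for Calb1, 2.22 to 4.20 for Calb2, -4.09 to -1.55 for Necab2 and -1.34 to -1.04 for Ncald. The comparison by Zeb2 within the pDR was not run, with 3 positive cells. The number called between dissections was 3 as reported, 5 on the ln(CPM+1) scale and 1 without cells with Zeb2 or Irx2, and 2 to 4 with 1 plate left out. For Gad1 or Gad2 it was 0 as reported and 2 within the pDR (Calb2 and Necab1). It was 1 over all cells, within the All DR and with a pseudocount of 0.1, each time Necab1. It was 1 without cells with Zeb2 or Irx2 (Calb2). For Trh it was 1 as reported, 2 over all cells, 2 within the pDR, 0 within the All DR, 2 with at least 10 cells per set, 3 on the ln(CPM+1) scale and 2 with the highest cell left out. For Slc17a8 it was 1 as reported, 0 over all cells, with a pseudocount of 10 or on the ln(CPM+1) scale, and 0 to 1 with 1 plate left out (0 without plate 13 or plate 40). Within the All DR it was also 1, but the gene was Necab1 and not Calb2. For Irx2 it was 2 to 4, and Calb2 reversed to a log2 of 0.046 without Zeb2-positive cells. Calb2 was also not called by Irx2 over all cells or within the All DR. Nor was it called with at least 10 cells per set, with a pseudocount of 10 or on the ln(CPM+1) scale. The number of gene pairs named was 0, and 1 at a minimum of 10 CPM. The cause of these changes was not tested. Leaving out cells by Zeb2, Irx2 or Trh reads was chosen after seeing the data. Marker-positive and marker-negative cells were paired by plate in the mean log2 ratios over plates. Shares of cells, and ratios over all cells or over the cells of a dissection, were pooled over plates and are not paired. No paired analysis was possible between dissections because they share no plate and the labels name no animal.

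Detection of Calb2 was limited by depth: its share at 250000 reads per cell was 26.6% against 32.1% in the pDR and 54.5% against 63.0% in the All DR. Plates may share animals, and intervals cover counting error only.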
